A study of Mus musculus with 4 samples.

Results

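The human chemokine ligand genes CCL2, CCL3, CCL4, CCL5, CCL17, CCL23, CXCL8, XCL1 and XCL2 were followed through the human leukocytes of humanised mice. They were taken by symbol and make up 9 of the 33538 human genes counted. Cells entered as human where more than 50% of their unique molecular identifiers (UMIs, each standing for 1 captured transcript) fell on human genes, which left 17021 cells after quality control. The question was which human cell class held transcripts of each ligand in blood, and which did so in the injured spinal cord.

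The hosts were huNSG-SGM3 mice in all groups. They carry Prkdcscid on the NOD.Cg background together with IL2rgtm1Wjl, lack mature lymphocytes of their own, and bear the 1Eav/MloySzJ transgenes, in which the CMV promoter drives human IL3, CSF2 and KITLG. They had been irradiated and engrafted with CD34+ cord blood stem cells, and the labels gave an age of 15 weeks. Single-cell libraries of sorted huCD45+ cells were made from the blood of naïve mice without surgery, of sham mice given a laminectomy at T9, and of mice with spinal cord injury (SCI) at T9, and from the injured cord of the SCI mice. Operated mice were taken 7 days after surgery, the naïve and sham hosts were male, and the SCI libraries pooled males and females. Each of these 4 groups was 1 library, so no difference between groups had a replicate check and no p-value was computed. All intervals below are 95% intervals that cover counting error only.

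Chemokines are small secreted proteins that direct leukocytes through G protein-coupled receptors. CCL3, CCL5 and CCL23 act on CCR1 of monocytes, T cells and granulocytes, and CCL4 draws monocytes and T cells. CCL2 draws CCR2+ monocytes, CCL17 draws CCR4+ T cells, CXCL8 draws neutrophils through CXCR1 and CXCR2, and XCL1 and XCL2 act on XCR1 of cross-presenting dendritic cells. After injury to the central nervous system such ligands are known for bringing blood leukocytes into the lesion.

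The naïve, sham and SCI blood libraries held 6324, 4645 and 5934 human cells with median depths of 3698, 5230 and 4655 UMIs per cell. The cord library held only 118 human cells, at a median of 9331 UMIs. Between 0 and 10 cell barcodes were shared by any pair of libraries. Cord tissue had also been digested with papain and passed over magnetic beads, which blood had not, so tissue and preparation cannot be told apart. Clustering without the 9 ligands and the other chemokine ligands gave 13 clusters, named from marker genes as 11 classes: cytotoxic memory T-like, CD8 T-like, naïve T-like, CD4 T-like, Treg-like, cycling, B-like, plasma-like, basophil or mast-like, eosinophil-like and monocyte-like. Levels below are CPM, the UMIs of a gene per 1000000 human UMIs of a class without ribosomal and mitochondrial genes, and classes under 10 cells in a library are described only as cells.

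Several labels were weak. Plasma-like cells numbered 382 in naïve blood and 1, 2 and 1 in sham blood, SCI blood and cord. A B-like cluster of 108 cells was marked as doublets for 99.1% of its cells. The eosinophil-like cluster (3, 6, 6 and 13 cells in naïve, sham, SCI blood and cord) carried CCL2, CCL3 and CCL4L2 among its leading genes. Leading genes were ranked after clustering, by level relative to all other cells. High levels of these ligands therefore describe the cluster and do not characterise it independently. CLC, the Charcot-Leyden crystal protein of eosinophils and basophils, was found in 13 of 13 cord cells of this cluster. Of the other eosinophil markers in the list, SIGLEC8 was found in 9 of these 13 cells, IL5RA, the IL-5 receptor gene, in 6 and CCR3 in 1. EPX, PRG2 and RNASE2, which encode granule proteins of eosinophils, were found in 0. Of the basophil or mast markers in the list, CPA3, TPSAB1, TPSB2, HDC and KIT were found in 0 of them too. FCER1A was found in 3 (9 UMIs), GATA2 in 2 (7 UMIs) and MS4A2 in 1. CCL5 was likewise a leading gene of the cytotoxic memory T-like cluster.

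In blood, each ligand had a leading class. For 9 of 9 ligands a single class held over 50% of the level summed over the 10 classes with enough cells, against 11.2% of the 15369 genes tested. The basophil or mast-like class led for CCL3, CCL4 and CCL23, the monocyte-like class for CCL2 and CXCL8, the cytotoxic memory T-like class for CCL5, XCL1 and XCL2, and the B-like class for CCL17. The eosinophil-like class, under 10 cells in each blood library, did not enter this ranking. Pooled, its 15 blood cells held CCL2, CCL3 and CCL4 at 516, 1070 and 3061 CPM, against means of 38.8, 240 and 1224 CPM in the leading classes. Single cells held 13 of its 28 CCL2, 30 of its 58 CCL3 and 106 of its 166 CCL4 UMIs. The lead for these 3 ligands also changed with 1 filter. Without the filter on outlying cells the eosinophil-like class reached 12 cells in sham blood (6 in naïve and 8 in SCI blood). On sham blood alone it then led for these 3.

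**Figure D1:**
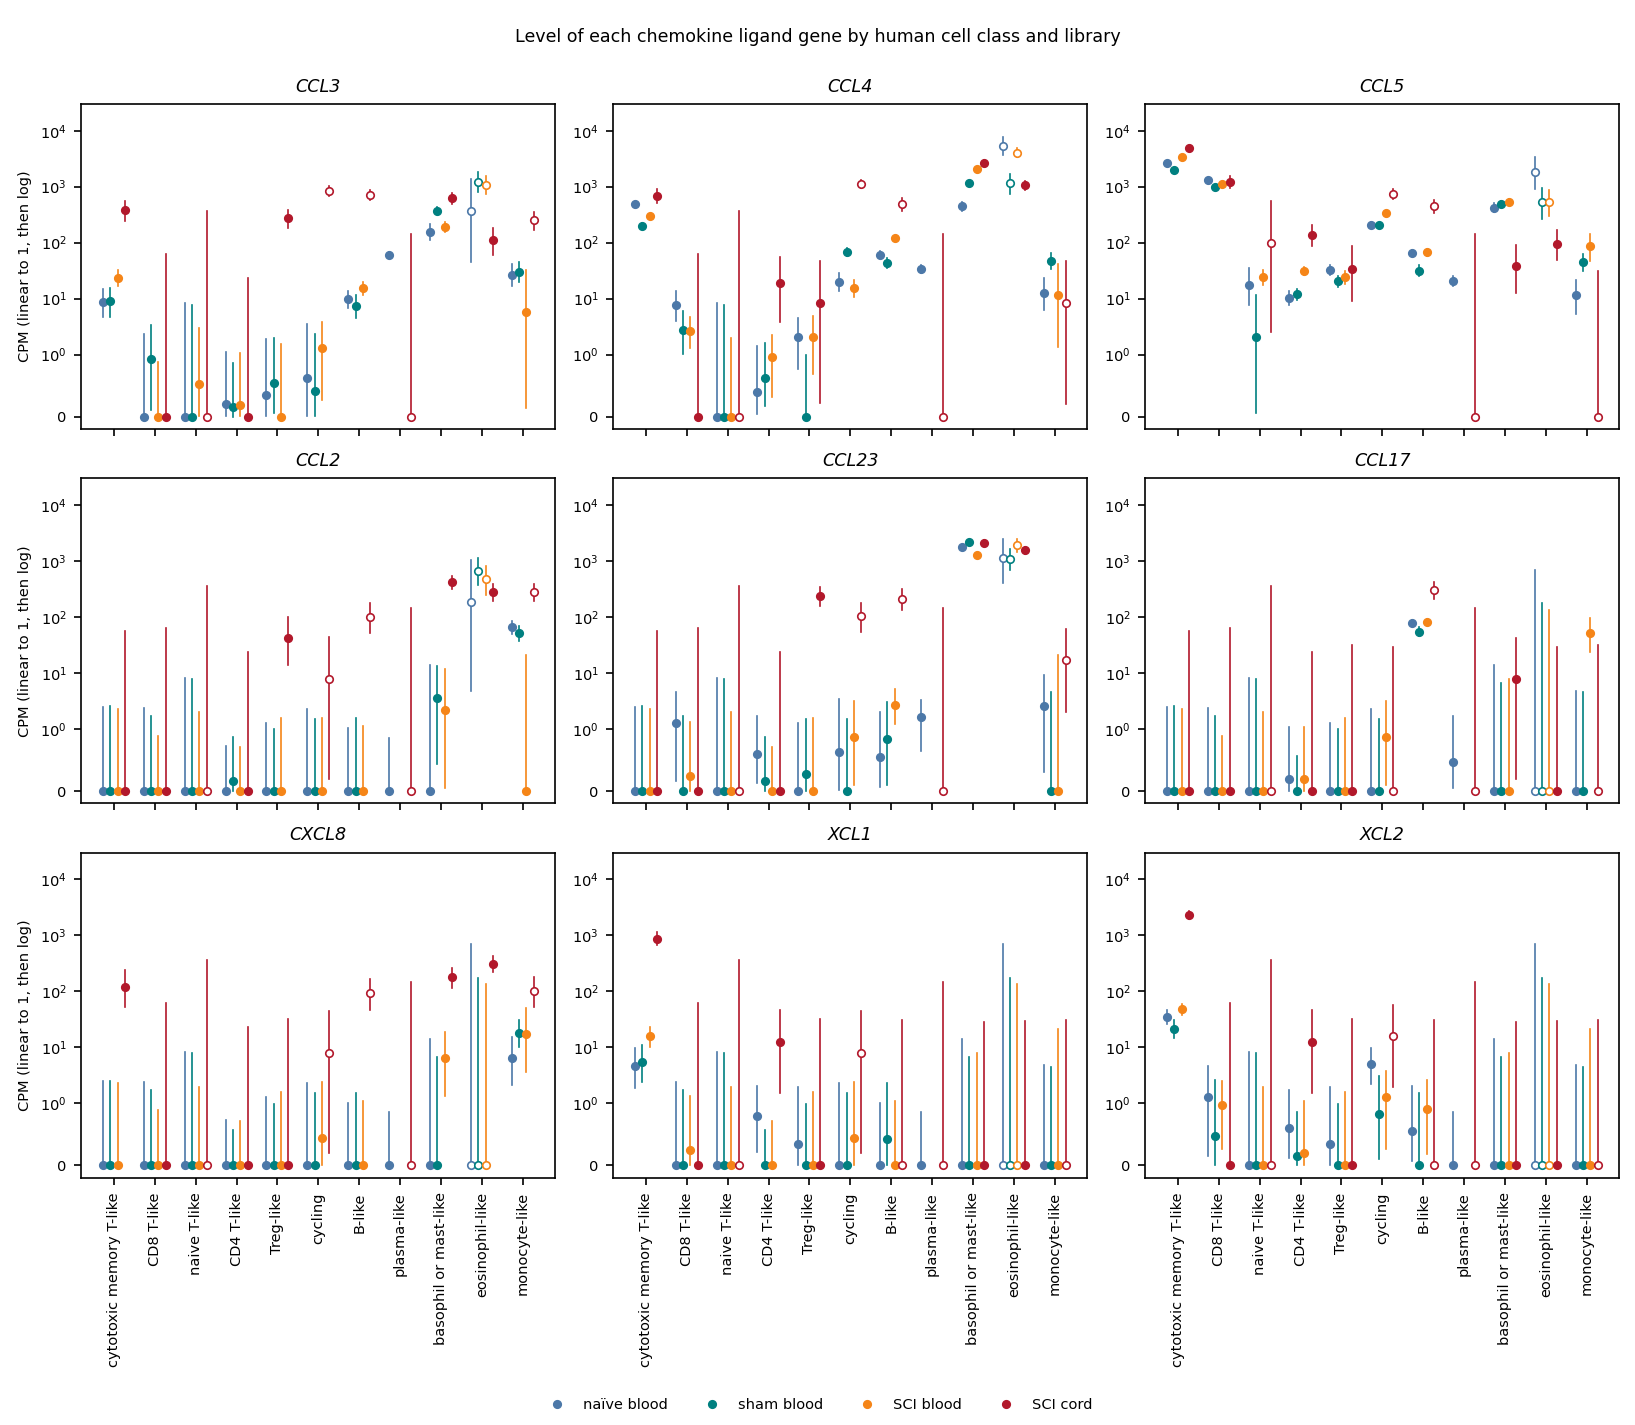
Level of each ligand (CPM, symmetric log axis) in each human cell class, with 1 symbol per library and bars for 95% counting intervals. Open symbols mark classes under 10 cells, shown for the cord and the eosinophil-like class. CCL23 sat at 1272 CPM or more in the basophil or mast-like class of all 4 libraries, and the B-like class held at least 95.8% of the CCL17 UMIs of each blood library.

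CCL3 and CCL4 (MIP-1α and MIP-1β) are inflammatory chemokines made by activated myeloid and cytotoxic cells. CCL3 in basophil or mast-like cells measured 156, 371 and 192 CPM in naïve, sham and SCI blood, so sham stood highest and the counting intervals of naïve (113 to 211) and SCI (155 to 237) overlapped. All 3 values lay above every other class of at least 10 cells, the nearest being the plasma-like cells of naïve blood at 59.4 CPM. Thinned to 1000 UMIs per cell, 4.21%, 6.78% and 3.82% of basophil or mast-like cells held a CCL3 UMI (8.42%, 19.5% and 9.92% before thinning). In CD4 T-like cells, which should lack it, the thinned share was at most 0.0661% (0.0719% before), at median depths of 3749 to 5503 UMIs against 3119 to 4851. Naïve blood differed in the share of UMIs by class, because its 382 plasma-like cells supplied 257 of its 373 CCL3 UMIs.

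CCL4 was spread over more classes. Basophil or mast-like cells measured 443, 1143 and 2087 CPM in naïve, sham and SCI blood, and cytotoxic memory T-like cells 483, 198 and 302 CPM. The ranges of these leading classes overlapped, since naïve blood was slightly higher in the T-like class. In the basophil or mast-like class of SCI blood, 1 cell held 699 of the 976 CCL4 UMIs, and without it the level was 599 CPM, below that of sham blood without its own top cell (725 CPM). B-like cells held 61.2, 43.7 and 120 CPM, while CD4 T-like cells stayed at or below 0.966 CPM. The near-identical paralogues CCL4L2 and CCL3L1 share sequence with CCL4 and CCL3, so the split of UMIs between them is uncertain. For every 100 CCL4 UMIs, CCL4L2 had 7.39 and 7.75 in naïve and sham blood and 39.5 in SCI blood. The same SCI cell carried 448 of 804 CCL4L2 UMIs, and without it the value was 26.7. Single cells weighed in that value too, since 1 B-like cell held 162 of the other CCL4L2 UMIs and 1 eosinophil-like cell 70.

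CCL5 (RANTES), a chemokine stored by cytotoxic lymphocytes, followed the cytotoxic classes. Cytotoxic memory T-like cells measured 2627, 2012 and 3417 CPM in naïve, sham and SCI blood, CD8 T-like cells 1318, 980 and 1100 CPM, and basophil or mast-like cells 421, 492 and 535 CPM. These 3 classes did not overlap with each other across the libraries. Thinned shares of cells with a CCL5 UMI were 63.8%, 41.7% and 66.5% in the cytotoxic class and 23.2%, 22.9% and 23.7% in the basophil or mast-like class. B-like cells, at 3671 to 5653 UMIs per cell, gave 2.27%, 1.76% and 2.13%. At a finer clustering, 209 of the CCL5 UMIs of blood B-like cells lay in the cluster of 108 cells marked as doublets (389 CPM) and 201 in the one led by TNFRSF13B, EBI3 and CD83 (83.0 CPM). The source of the B-like UMIs was not tested. Unthinned, the shares were 75.4%, 55.3% and 79.9% in the cytotoxic class, 37.9%, 49.2% and 40.5% in the basophil or mast-like class, and 6.98%, 8.44% and 7.66% in B-like cells. No single cell held more than 0.983% of the CCL5 UMIs of a blood library. In the cytotoxic class 320 of the 340 blood cells with CCL4 also held CCL5, where 71.9% of all cells of the class did.

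CCL2 (MCP-1), the main attractant of classical monocytes, was rare in blood. The monocyte-like class held 51 UMIs in 140 naïve cells and 42 in 90 sham cells, or 65.3 and 51.0 CPM, with overlapping intervals. SCI blood gave 0 UMIs in its 18 monocyte-like cells, which allows up to 17.1 CPM. B-like cells held 0 CCL2 UMIs in all 3 blood libraries. The 6 eosinophil-like cells with CCL2 among 15 in blood contributed 28 of the 125 blood UMIs, including 13 of the 14 in SCI blood. The larger part of CCL2 in blood thus came from naïve and sham monocyte-like cells.

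CCL23, an attractant of monocytes and resting T cells through CCR1, had most of its blood UMIs in the basophil or mast-like class. That class measured 1777, 2143 and 1272 CPM in naïve, sham and SCI blood. It took 99.7% of the level summed over the 10 classes with enough cells, which leaves out the eosinophil-like class. The basophil or mast-like class also held 95.4%, 97.8% and 90.2% of all CCL23 UMIs of those libraries. After thinning, 56.8%, 60.2% and 42.0% of its cells held a UMI (71.6%, 83.9% and 74.0% before), against at most 0.157% of B-like cells (0.957% before). Sham was highest and SCI lowest, and their intervals (2022 to 2268 and 1172 to 1379 CPM) did not overlap. Eosinophil-like cells were the other holders, with a CCL23 UMI in 13 of 15 blood cells. Pooled, these 15 cells held it at 1512 CPM, against a mean of 1731 CPM in the basophil or mast-like class. The 6 of SCI blood held 1906 CPM, above the 1272 CPM of the basophil or mast-like class there, with 25 of their 53 UMIs in 1 cell.

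CCL17 (TARC), a ligand for CCR4 on Th2 and regulatory T cells, was a B-like product in blood, with 77.8, 54.5 and 82.5 CPM in naïve, sham and SCI blood. Sham lay lowest and its interval (45.6 to 64.7) was below those of naïve (69.0 to 87.4) and SCI (73.0 to 92.8). The B-like class held 98.9%, 100% and 95.8% of the CCL17 UMIs. The other classes stayed at or below 0.861 CPM except the 18 monocyte-like cells of SCI blood, which held 9 UMIs at 51.3 CPM. CD4 T-like cells held 1, 0 and 1 UMIs. At a finer clustering, 50.8% of the blood UMIs lay in a B-like cluster led by TCL1A, an early B cell gene, and 37.2% in a cluster led by TNFRSF13B, EBI3 and CD83. A cluster of 120 cells led by MPP6 and FCRL5 held 6.28%, and the largest, of 998 blood cells, 3.14%. CCL17 was thus unevenly held among B-like cells, with a UMI in 12.6%, 9.33%, 14.2% and 1.80% of the cells of these clusters before thinning, and 111, 108, 120 and 7.81 CPM. Over the whole B-like class the thinned share was 2.98%, 3.34% and 2.87% in naïve, sham and SCI blood, against at most 0.0719% of CD4 T-like cells.

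CXCL8 (IL-8) was scarce in blood, with 5, 15 and 7 UMIs in naïve, sham and SCI blood. In naïve and sham blood all of them came from monocyte-like cells, at 6.41 and 18.2 CPM. In SCI blood 3 UMIs fell in 1 basophil or mast-like cell, 3 in 2 monocyte-like cells and 1 in a cycling cell. The monocyte-like value of SCI blood, 17.1 CPM, equals its floor of 3 counts. B-like cells held none.

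XCL1 and XCL2, the lymphotactins of natural killer and CD8 T cells, are near-identical paralogues whose UMIs may be split unevenly in counting. XCL2 in cytotoxic memory T-like cells measured 34.9, 21.2 and 48.0 CPM in naïve, sham and SCI blood, and XCL1 4.69, 5.48 and 15.6 CPM. SCI blood was highest for both. The thinned share with XCL2 was 2.90%, 1.80% and 3.85% (6.96%, 4.50% and 8.12% before), against at most 0.0784% in B-like cells (0.106% before). Of the 32 blood cells with XCL1, 23 also held XCL2.

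The cytotoxic class was then divided by CD3D, CD3E and CD3G, the T cell receptor subunits. This division was chosen after the values were seen. The 7, 8 and 15 cells of naïve, sham and SCI blood with 0 CD3 UMIs held XCL2 at 442, 775 and 474 CPM. The 510, 325 and 453 cells with at least 1 CD3 UMI held 31.7, 9.73 and 38.8 CPM. FCER1G or TYROBP, signalling adaptors of natural killer and myeloid cells, was detected in 5 of 7, 8 of 8 and 15 of 15 of the CD3-negative cells, and in 18 of 510, 11 of 325 and 31 of 453 of the others. The CD3-negative cells were few and shallower, with medians of 2118 to 3066 UMIs. They nevertheless supplied 17 of the 31 XCL2 UMIs of the cytotoxic class in sham blood, 5 of 52 in naïve blood and 16 of 77 in SCI blood. Among the others, cells with exactly 1 CD3 UMI numbered 7, 4 and 17 in naïve, sham and SCI blood. They held 5, 5 and 26 XCL2 UMIs, at 395, 473 and 635 CPM. FCER1G or TYROBP was detected in 3, 4 and 13 of them, so the division does not part the cells cleanly.

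**Figure D2:**
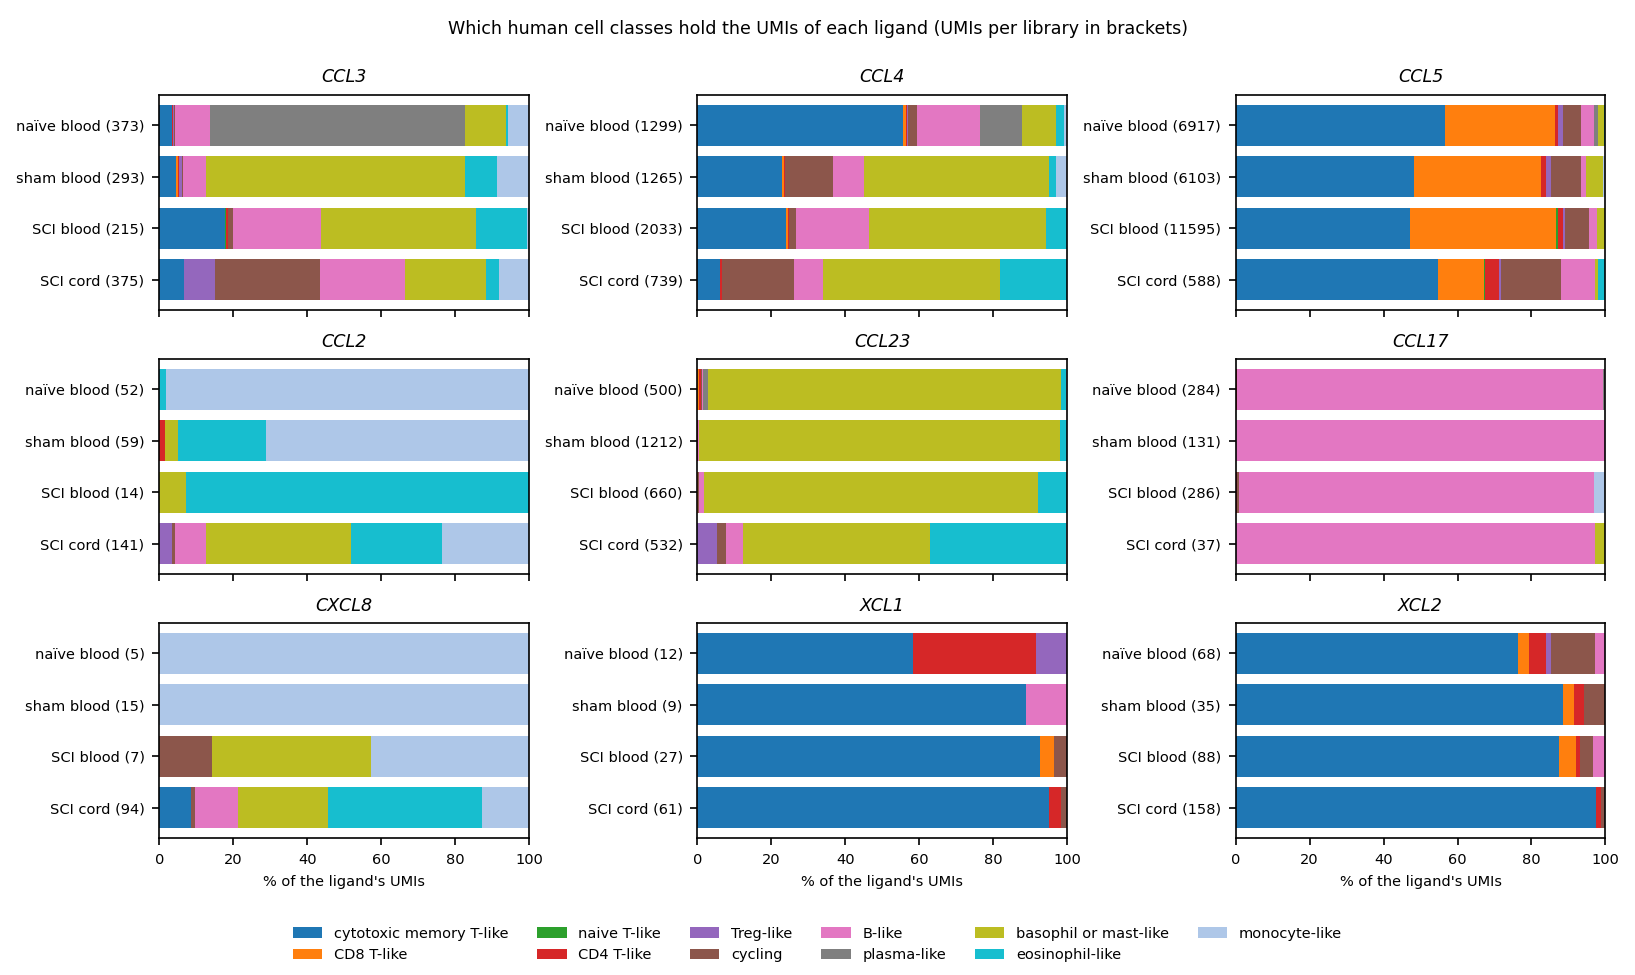
Share of each ligand's UMIs (per cent) by human cell class, with 1 stacked bar per library and the number of UMIs given for each bar. Basophil or mast-like and B-like cells filled most of the CCL23 and CCL17 bars of blood, and eosinophil-like cells entered the CCL23 and CCL4 bars of the cord.

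Genes whose level ran most alike over the 10 blood classes, by Pearson's r of class means, were mostly lineage genes. The points share libraries and depth, and the r is a description. CCL23 ran with GCSAML (0.995) and CPA3 (0.99), a mast cell carboxypeptidase. CCL17 ran with LINC01800 (0.996), DSP and KMO (both 0.99). CCL5 ran with NKG7 (0.99) and CTSW (0.97), granule genes of cytotoxic cells, and XCL2 with the natural killer receptor genes KLRC1 (0.97) and KLRC2 (0.96). CCL2 and CXCL8 shared PLXDC2 (0.998 and 0.99), while IL1B (0.998) was closest to CCL2 and OSCAR (0.996) to CXCL8. CCL3 and CCL4 had lower values, led by GALNT3 (0.94) and RASSF1 (0.94).

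Between blood libraries, a difference was counted where it passed 2-fold with at least 20 UMIs over the pair. Sham against naïve blood asks what laminectomy changed. CCL23 was higher, at 59.1 against 22.7 CPM over all cells (2.61-fold, 2.35 to 2.90), and so was CXCL8, at 0.732 against 0.227 CPM (3.23-fold, 1.11 to 11.3), so 2 of 9 ligands were higher against 2.15% of genes tested. CCL17 was lower, at 6.39 against 12.9 CPM (0.496-fold, 0.40 to 0.612), 1 of 9 against 2.85%. This passed 2-fold only just, and the log2 value was -0.67 as UMIs per cell and -0.51 with equal class weights. Within B-like cells CCL17 was 54.5 against 77.8 CPM (0.701-fold). Within the basophil or mast-like class CCL23 was 2143 against 1777 CPM, while CCL3 (371 against 156 CPM, 2.37-fold) and CCL4 (1143 against 443 CPM, 2.58-fold) were past 2-fold. Without the top cell of each library, these were 2.30-fold (260 against 113 CPM) and 2.38-fold (725 against 305 CPM). CCL4 went the other way in cytotoxic memory T-like cells, at 198 against 483 CPM (0.409-fold, 0.356 to 0.470), and over all cells it was 61.7 against 58.9 CPM. The class make-up moved as well, with 118 of 4645 against 95 of 6324 cells in the basophil or mast-like class and 569 against 1275 in the B-like class.

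SCI against naïve blood had XCL1 higher, at 1.25 against 0.544 CPM (2.30-fold, 1.13 to 4.99), 1 of 8 ligands with enough UMIs against 3.28% of genes. CCL2 was lower, at 0.650 against 2.36 CPM (0.275-fold, 0.141 to 0.504), 1 of 8 against 4.38%. Monocyte-like cells, the main CCL2 holders, numbered 18 in SCI blood against 140. CXCL8, with 7 and 5 UMIs, was below the minimum. CCL5 was 538 against 314 CPM (1.71-fold, 1.66 to 1.77) and CCL4 94.4 against 58.9 CPM (1.60-fold). CD8 T-like cells, which hold CCL5, were 24.0% of SCI blood cells against 10.3%. Within them CCL5 was 1100 against 1318 CPM (0.835-fold), within cytotoxic memory T-like cells it was 3417 against 2627 CPM (1.30-fold), and with equal class weights the log2 difference was 0.25. CCL4 was lower within cytotoxic memory T-like cells, at 302 against 483 CPM (0.625-fold), and higher within basophil or mast-like cells, at 2087 against 443 CPM (4.71-fold, or 1.96-fold without the top cell of each library). Without the 1 cell with most CCL4 UMIs in each library the log2 difference of CCL4 was 0.16 in place of 0.68.

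SCI against sham blood sets injury to the cord beside surgery alone. Host sex differed too, since naïve and sham hosts were male and the SCI libraries pooled males and females. In both SCI comparisons of blood, injury and host sex cannot be told apart. CCL17 (13.3 against 6.39 CPM, 2.08-fold), XCL1 (1.25 against 0.439 CPM, 2.85-fold) and XCL2 (4.08 against 1.71 CPM, 2.39-fold) were higher, 3 of 9 against 1.92% of genes. CCL2 (0.650 against 2.88 CPM, 0.226-fold) and CXCL8 (0.325 against 0.732 CPM, 0.444-fold) were lower, 2 of 9 against 3.35%. The counting interval of CXCL8 (0.153 to 1.16) included no difference. XCL1 and XCL2 kept the direction within the cytotoxic memory T-like class, at 15.6 against 5.48 CPM (2.85-fold, 1.24 to 7.30) and 48.0 against 21.2 CPM (2.26-fold, 1.47 to 3.55). Cells of that class with 0 and exactly 1 CD3 UMI numbered 15 and 17 in SCI blood and 8 and 4 in sham blood. They held 7 and 15 of the 25 XCL1 UMIs in SCI blood and 4 and 3 of the 8 in sham blood. For XCL2 they held 16 and 26 of 77 and 17 and 5 of 31. Their part in these ratios was not tested. CCL17 within B-like cells was 82.5 against 54.5 CPM, under 2-fold. CCL23 was 30.6 against 59.1 CPM over all cells (0.518-fold, 0.471 to 0.570), also just under 2-fold. The comparisons share libraries and are given side by side.

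**Figure D3:**
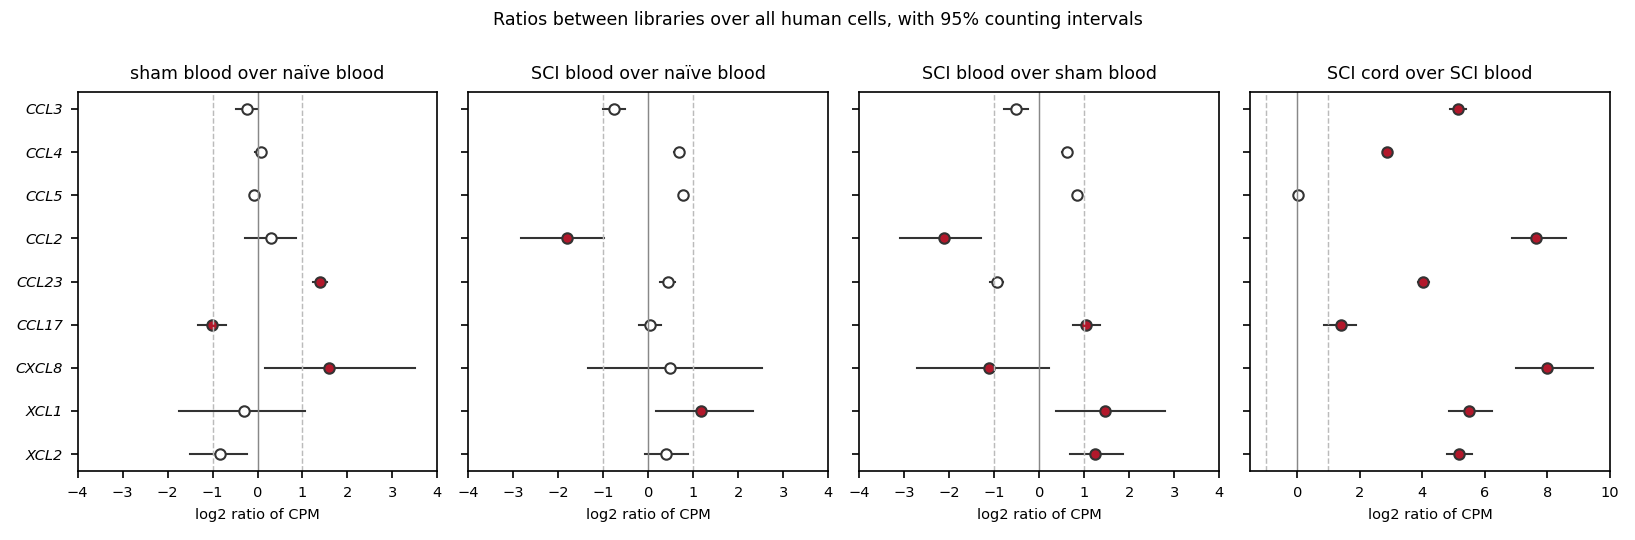
Log2 ratio of each ligand between libraries over all human cells, with 95% counting intervals and 1 panel per comparison. Filled red points pass 2-fold (dashed lines) with at least 20 UMIs. In the cord panel CXCL8 (273-fold) and CCL2 (204-fold) lie highest and CCL5 lies at 0.04.

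In the cord, 69 of 118 human cells (58.5%) held at least 1 UMI of a ligand, against 19.8%, 17.8% and 25.8% in naïve, sham and SCI blood. Thinned to 1000 UMIs per cell, which left out 0 cells, the shares were 39.8% in the cord and 12.9%, 10.6% and 16.4% in blood. Relative to SCI blood, 8 of 9 ligands were more than 2-fold higher over all cells, against 13.8% of 13400 genes tested, and 0 of 9 were lower, against 9.28%. CXCL8 and CCL2 had 7 and 14 UMIs in SCI blood and 94 and 141 in the cord. They thus met the minimum of 20 UMIs only through the cord, under the rule used for all genes. The 9 ligands were chosen with earlier results of these data known, so this count is a description. CXCL8 measured 88.6 against 0.325 CPM (273-fold, 127 to 697) and CCL2 133 against 0.650 CPM (204-fold, 118 to 384). XCL1, XCL2 and CCL3 were 45.9-fold, 36.4-fold and 35.4-fold higher, CCL23 16.4-fold, CCL4 7.38-fold and CCL17 2.63-fold. CCL5 was 554 against 538 CPM (1.03-fold, 0.946 to 1.12). The median log2 difference was 5.14 for the 9 ligands and -0.01 for all genes. The cord also held another mix of cells, with 15 of 118 basophil or mast-like and 13 of 118 eosinophil-like cells against 131 and 6 of 5934 in SCI blood.

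Few cells lay behind several of these levels. A single cytotoxic cell with CD3D held 58 of the 61 XCL1 and 128 of the 158 XCL2 UMIs of the cord. Another cell, of the B-like class but with LYZ and CD1C and no MS4A1, held 27 of 37 CCL17 UMIs. In an eosinophil-like cell of 28030 UMIs lay 39 of the 94 CXCL8 UMIs, beside 25 UMIs of the T cell genes CD3D, CD3E and TRAC, and a cycling cell held 92 of the 375 CCL3 UMIs. For each ligand, the 1 cell with most of its UMIs was left out of each library. The log2 difference from SCI blood was then 1.60 for XCL1, 2.97 for XCL2 and -0.16 for CCL17, so the direction of CCL17 rested on 1 cell. CCL2, CCL4, CCL5 and CCL23 were held by 22, 40, 38 and 31 cord cells.

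The basophil or mast-like class, with 15 cord cells at a median of 9273 UMIs, allowed a comparison within a class with SCI blood (131 cells, 3946 UMIs). This class joins basophil-like and mast-like cells, so the comparison does not hold cell type fixed. TPSAB1 ran from 0 to 220 UMIs over its cord cells with a ligand, highest in the cell with most CCL2. CCR3, a receptor of basophils, was 84.2 CPM in the cord class and 571 CPM in that of SCI blood. The part of the mix in the values below was not tested. CCL2 was 421 against 2.14 CPM (197-fold, 33.9 to 7917), CXCL8 176 against 6.42 CPM (27.4-fold, 8.29 to 143) and CCL3 628 against 192 CPM (3.26-fold, 2.39 to 4.45). CCL23 (2059 against 1272 CPM) and CCL4 (2703 against 2087 CPM) stayed under 2-fold, but CCL4 was 1763 against 599 CPM (2.94-fold) without the top cell of each library. CCL5 was lower, at 38.3 against 535 CPM (0.0716-fold, 0.0230 to 0.169). Single cells weighed here too. Without its top cell, the cord class held CCL2 at 144 CPM, CCL3 at 96.0 CPM and CXCL8 at 43.6 CPM, so CCL3 then lay below the 192 CPM of SCI blood (117 CPM without its own top cell).

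Cytotoxic memory T-like cells (13 in cord, 468 in SCI blood) were the source of most cord CCL5, with 322 of 588 UMIs and 4838 against 3417 CPM (1.42-fold, 1.26 to 1.58). Their CCL3 was 376 against 23.7 CPM (15.9-fold, 9.18 to 27.0) and their CCL4 691 against 302 CPM (2.29-fold). Of the 13 cells 9 held CCL4, and all 9 also held CCL5. XCL2 was found in 5 of the 13, and 24 of its 154 UMIs lay in 2 cells with exactly 1 CD3 UMI each. These 2 cells also held 46 UMIs of CSF2, the GM-CSF gene, and 19 of TRDC, the T cell receptor delta constant gene. FCER1G or TYROBP was detected in each of them.

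The 13 eosinophil-like cord cells all held CCL23, with 2 to 34 UMIs per cell and a median of 13. CCL2 was found in 10 of them (highest 15 UMIs) and CCL4 in 9 (highest 37). This small class supplied 195 of the 532 CCL23, 134 of the 739 CCL4 and 35 of the 141 CCL2 UMIs of the cord. Of 10 neutrophil markers, CAMP was found in 11 of the 13 cells (72 UMIs), CXCR1 in 4 and CXCR2 in 2. The other 7, CSF3R, FCGR3B and MPO among them, were found in 0. The 7 monocyte-like cord cells held 33 CCL2 UMIs, 26 of them in 1 cell, and 12 CXCL8 UMIs. Across the cord, 20 of the 22 cells with CCL2 also held CCL23, and 17 of the 19 with CCL3 also held CCL4.

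**Figure D4:**
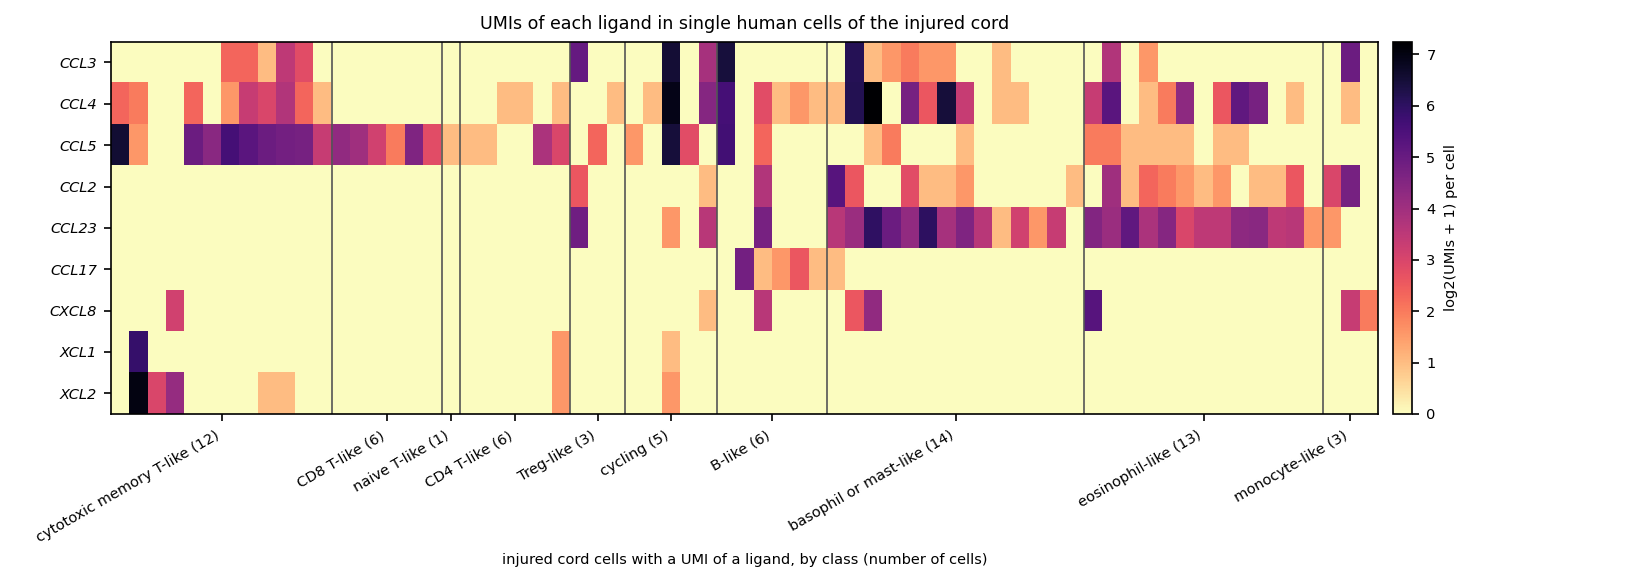
UMIs of each ligand (colour, log2 of UMIs + 1) in the 69 cord cells that held at least 1, with cells in columns ordered by class. CCL23 runs through the basophil or mast-like and eosinophil-like columns, CCL2 is at 0 in 7 of the 14 basophil or mast-like and 3 of the 13 eosinophil-like columns, and XCL1 and XCL2 are dark in 1 cytotoxic cell.

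Some cord cells went against their class. After the data were seen, cells were set aside that held at least 10 UMIs, summed over chosen genes of another lineage. They were 3 B-like cells with LYZ or CLC, 1 Treg-like cell with the mast cell genes CPA3 and TPSAB1, and 2 eosinophil-like cells with CD3D, CD3E and TRAC. Without the first 4, the log2 difference from SCI blood was 4.72 for CCL3 and -0.45 for CCL17, and 7 ligands stayed past 2-fold. Without all 6 cells, CXCL8 was at 7.09 and CCL17 at -0.39, and 7 ligands again stayed past 2-fold. Mouse cells of the cord library also held human ligand UMIs, 25 of CCL4 in 9 of 93 cells and 10 of CCL23 in 5, and whether these came from free RNA or from doublets was not tested.

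Genes of tissue dissociation and of NF-kB moved with the cord values. Of 28 genes in a list of the dissociation response, 12 were over 2-fold higher in cord than in SCI blood (median log2 0.80), and of 16 NF-kB target genes 7 were (0.63), against 13.8% of all genes tested. Within the basophil or mast-like class, 12 of 26 dissociation genes were past 2-fold, against 6.03% of the 4777 genes tested there, and within the cytotoxic memory T-like class 14 of 23, against 14.2% of 8022. Their part in the ligand levels was not tested.

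The other chemokine ligands numbered 37 measured genes, of which 8 had enough UMIs between cord and SCI blood, with 6 over 2-fold higher and 2 over 2-fold lower, against 13.8% and 9.28% of all genes. CCR1, the receptor of CCL3, CCL5 and CCL23, was highest in monocyte-like cells of naïve, sham and SCI blood (299, 258 and 114 CPM). CCR3, a CCL5 receptor of basophils and eosinophils, was highest in basophil or mast-like cells (533, 421 and 571 CPM in blood and 84.2 CPM in cord). The CCL17 receptor CCR4 was highest in Treg-like cells of all 4 libraries (164, 166, 133 and 102 CPM). XCR1 had 13 and 27 UMIs in naïve and sham blood and 0 in SCI blood and cord, so human cells with the XCL1 and XCL2 receptor were not detectable there at this depth.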

How the data were processed

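Libraries were made by the 10x Genomics 3' method from sorted huCD45+ cells. The authors deposited filtered matrices of UMI counts per gene and cell barcode, made with Cell Ranger 3.1.0 (named in the submitters' processing notes) against a combined GRCh38 and mm10 reference, with no normalization. Barcodes with over 50% human UMIs were kept, and cells over 3 median absolute deviations below the median in UMIs or genes, or above it in mitochondrial or ribosomal share, were removed within each library. Doublets were marked at 0.8% per 1000 cells and removed only above 3000 genes. In the small cord library this rate marked 0 cells, so no cord cell was removed as a doublet in any setting. The automatic cutoff of the doublet score, which was not used, called 4 there. Cells were clustered in scanpy 1.11.5 (2000 variable genes without the 9 ligands and the other chemokine ligands, 30 components, 15 neighbours, resolution 0.8) and named from at least 3 markers found in at least 10% of cells. Differences from the study's classes may come from these rebuilt names.

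UMIs were summed per class and library, and CPM excluded ribosomal and mitochondrial genes. Intervals were exact Poisson for levels and exact conditional binomial for ratios (scipy 1.17.1). The log2 ratio, with 0.5 added to counts, was called past 2-fold with at least 20 UMIs over both libraries, and the step was checked on simulated counts. A count of 0 allows 3 counts. Total human UMIs were 29402676, 27695487, 31179110 and 1430777 in naïve, sham and SCI blood and cord. With 1 library per group no test between groups was possible. The 9 ligands and all lists were chosen with earlier results of these data known. Besides the 9 ligands, up to 3 genes most like each were named, among genes with at least 100 UMIs. Alternatives were thinning to 1000 UMIs, other weights, filters, resolutions (0.4 and 1.5) and doublet settings, TMM factors from edgeR 4.0.16, and leaving out libraries or single cells. Leaving out cord cells against their class, leaving out top cells within classes and the CD3 division were chosen after seeing the data. No human sequence or coordinate was used here, and 1 item of the receptor list is not reported here.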

Additional observations from a re-analysis of the deposited data

Results flagged for a closer look

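Ligand genes of the mouse hosts were measured in the mouse cells of the same libraries, which entered no comparison above. These cells numbered 1411, 1990 and 1230 in naïve, sham and SCI blood and 93 in the cord. They are mouse cells that came through the huCD45+ sort, and their make-up was not analysed here. In naïve blood Ccl2, Ccl3 and Ccl5 had 0 UMIs and Ccl4 had 1 (0.355 CPM), and values above these were singled out. In sham blood Ccl2 measured 4.00 CPM, Ccl3 14.4 CPM, Ccl4 9.27 CPM and Ccl5 12.4 CPM. In SCI blood the values were 6.01 CPM for Ccl2, 8.48 CPM for Ccl3, 11.0 CPM for Ccl4 and 11.7 CPM for Ccl5. The cord mouse cells were highest for all 4 genes, with 104 CPM of Ccl2, 525 CPM of Ccl3, 978 CPM of Ccl4 and 72.0 CPM of Ccl5. Ccl4 was found in 56 and Ccl3 in 52 of the 93 cord mouse cells. Each group is 1 library, and none of these differences was tested.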

How the results depend on the processing

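Over the alternatives, 338 single values moved by less than their counting interval, and the rest moved by more. The 338 include values from the setting without a minimum of UMIs, which cannot change a ratio. TMM factors lay between 0.963 and 1.02 and could shift a ratio only slightly. The count of 338 is therefore not a measure of stability. The sign changed in 26 cases, 23 of them for values under 2-fold, which included 7 for CCL3, 6 for CCL17, 3 for CCL4, 2 each for CCL5, CCL23 and XCL1, and 1 for CCL2. CCL3, lower in sham than in naïve blood by summed UMIs (log2 -0.24), was at 1.05 with equal class weights. In SCI against naïve blood it went from -0.76 to 0.40 after thinning, and CCL23 from 0.43 to -0.48 with equal class weights. Past 2-fold, 3 signs changed. The first was CCL2 in SCI against naïve blood, at log2 0.20 when cells were thinned to 1000 UMIs. The second was CXCL8 in SCI against sham blood, at 0.39 with equal class weights. The third was CCL17 in cord against SCI blood, at -0.16 without the 1 cell with most CCL17 UMIs in each library. For the first and the second the cause was not tested. The count in sham against naïve blood was 3 and ranged from 2 to 4. The count past 2-fold in SCI against naïve blood was 2, and became 1 with the mean of per-cell CPM and 0 after thinning. In SCI against sham blood it was 5, and became 3 with the mean of per-cell CPM. The cord count of 8 ranged from 6 with equal class weights to 9 as UMIs per cell. With each blood library left out, 8 to 9 ligands had over 50% of their level in 1 class. Without the filter on outlying cells the eosinophil-like class, by its 12 cells of sham blood, led for CCL2, CCL3 and CCL4, and 8 ligands had over 50% in 1 class. No paired analysis was possible because each group has 1 library. All cord values rest on 118 cells.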

Other observations

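Other ligands differed in how far 1 class held them, and the genes given were chosen after their values were seen. CCL28, a mucosal chemokine with 291, 400, 312 and 7 UMIs in naïve, sham and SCI blood and cord, had 27.3% of them in its top class, CD4 T-like cells. CXCL16 had 37.9% in basophil or mast-like cells and CCL27 36.1% in CD4 T-like cells. CCL18, an alternative activation chemokine, had 9, 54, 82 and 14 UMIs in naïve, sham and SCI blood and cord, 98.7% of them in basophil or mast-like cells. CCL26 (eotaxin-3), a CCR3 ligand, had 17 UMIs in 6 cord cells and 2, 0 and 3 in the blood libraries, with 77.3% of all UMIs in eosinophil-like cells. CXCL13, the ligand that draws CXCR5+ cells to follicles, had 70, 108 and 40 UMIs in blood, 62.4% of all in CD4 T-like cells, and 0 in the cord. All 119 CCL19 UMIs of sham blood lay in 1 cell. CCL20, the CCR6 ligand, had 26, 28, 23 and 18 UMIs, with 61.1% in Treg-like cells.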
